A study of Mus musculus with 8 samples.

Results

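The genes described here are 10 components of BMP and TGF-beta signalling that endothelial cells use: the co-receptor Eng, the receptors Acvrl1, Tgfbr1, Tgfbr2 and Bmpr2, the ligands Bmp4 and Bmp6, the inhibitory Smads Smad6 and Smad7, and the target gene Id1. They were taken as every non-control probe whose gene name on the array is one of these symbols, which gave 15 of 55681 probes and at least 1 probe for each of the 10 genes, of 24217 gene names on the array. RNA was measured on one-colour Agilent microarrays in cells pulled from single E12.5 mouse embryos with magnetic beads carrying an antibody to CD31 (PECAM-1), after fetal liver and brain had been removed. There were 4 embryos homozygous for the Gata2 +9.5 mutation (Gata2+9.5-/-) and 4 wild type littermates, from crosses of heterozygous parents on the C57Bl/6J background, with 1 array per embryo. Each of 2 litters gave 2 embryos of each genotype: samples 1 and 2 of each genotype came from litter 1 and samples 3 and 4 from litter 2. The arrays of a litter also shared a slide and a scan, so litter, slide and scan cannot be told apart. The labels name no transgene, no Cre and no treatment, and the untreated wild type littermates are the controls.

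Ligands of this family bind a pair of type II and type I receptors, which are serine/threonine kinases. The activated type I receptor phosphorylates receptor Smads, which enter the nucleus with Smad4 and switch on targets such as the Id genes. Smad6 and Smad7 are themselves induced by the pathway and shut it down. In endothelium, Acvrl1 (ALK1) and its co-receptor endoglin (Eng) carry signals of circulating BMP9 and BMP10, and in humans loss of one copy of either gene causes hereditary haemorrhagic telangiectasia. Gata2 encodes a zinc-finger factor needed for blood stem cells, its +9.5 element is an intronic enhancer, and BMP signals through Smads are known to act on Gata2 in blood formation. The comparison of genotypes asks whether the transcripts of this signalling route differ in the CD31-enriched cells of embryos with the mutated enhancer.

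For Bmp4, Tgfbr1 and Tgfbr2 more than 1 probe reads the gene, and their probes gave different values below, so the first 30 of the 60 bases of each probe are shown, 5′ to 3′ as the scanner files hold them.
Bmp4 A_55_P2154387, chr14:47003391-47003450 (mm9, minus strand): caaccacctacacataccacacaaactgct
Bmp4 A_55_P1959022, chr14:47003198-47003257 (mm9, minus strand): gacaaatatatttataactacatattaaaa
Tgfbr1 A_55_P2137206, chr4:47427736-47427795 (mm9, plus strand): tttcatcctaacactacagtagaaaatgga
Tgfbr1 A_55_P2137211, chr4:47424946-47425005 (mm9, plus strand): ctttttatctcatatgtgcagatcttgcaa
Tgfbr1 A_55_P1960901, chr4:47395833-47395892 (mm9, plus strand): tggatttccaggatgaatatgggtctctga
Tgfbr1 A_55_P1960906, chr4:47374114-47374173 (mm9, plus strand): gtgcataaaaagtgcatggtaaataaagtg
Tgfbr2 A_51_P450573, chr9:115997155-115997214 (mm9, minus strand): tctagcggggaatttacagaatgctggtcc
Tgfbr2 A_55_P2107288, chr9:115999496-115999555 (mm9, minus strand): gggaggagctgctcccaggagaagattcca
The dim Bmp4 probe A_55_P1959022 is 85.0% A+T, against a median of 56.7% over the 55681 probes, and 0.0485% of them hold at least as much. The Tgfbr1 probes A_55_P1960901 and A_55_P1960906 are tied by the files to Ensembl transcripts without a RefSeq entry, and the other Tgfbr1 probes to the RefSeq transcript. The exon or UTR in which each probe lies was not annotated here, since no mm9 gene models were used.

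Promoter windows of the 10 genes, 250 bases before to 50 after the transcript start (RefSeq, GRCm38.p6), were matched for 7 genes with 8 windows. Id1 and Acvrl1 had no entry among the promoters. Smad7 was left out of the match, so its promoter is not reported here. A GATA site (AGATAA or AGATAG or TGATAA or TGATAG, both strands) stood in 0 of the 8 windows, against 29.8% of 32851 promoters of that length. The palindromic Smad box GTCTAGAC stood in 1, that of Smad6, against 0.213% of promoters. The GC-rich Smad element GGCGCC stood in 2 of the 8, 105 bases before the start of Bmpr2 and 233 before one start of Tgfbr1, against 11.9% of promoters. The stretches around the Smad6 box, which begins 4 bases before the start, and the Bmpr2 element are shown as examples, with the matched letters in capitals. The Tgfbr1 element is not shown.
Smad6 promoter, chr9:64022050-64022103 (GRCm38.p6, minus strand): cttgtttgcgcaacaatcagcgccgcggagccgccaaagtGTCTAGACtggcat
Bmpr2 promoter, chr1:59764134-59764213 (GRCm38.p6, plus strand): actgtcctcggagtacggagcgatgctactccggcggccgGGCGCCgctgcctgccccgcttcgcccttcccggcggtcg
These matches describe the letters of the windows and were not tested for binding. The 8 windows held 52.0% to 74.7% G+C, and the shares over all promoters were not matched for base content.

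Values are log2 signals relative to the 75th percentile of each array's signal, so that 0 is the level of a spot brighter than most, and differences are mutant minus wild type on that log2 scale. Each array held 62976 spots, of which 59305 were not controls, and 74.9% to 92.0% of those were well above background. Spots of one probe repeated on an array differed by a median SD of 0.093 to 0.160. The arrays of wild type 2, wild type 3 and mutant 4 stood apart on the first principal component, which held 58.4% of the variance, and both litters and both genotypes are among them. Over the probes kept for testing, the interquartile range of the log2 values was 3.23, 2.98 and 2.65 on these arrays. On the other arrays it was 3.26 to 4.10. The CD31 gene Pecam1 and the endothelial cadherin gene Cdh5 were well above background on all 8 arrays. So were Pf4 of platelets, Mpo of granulocytes, Csf1r of macrophages, Col1a2 of mesenchyme and Hbb-y of embryonic red cells, so the enriched cells were not free of other types' RNA. In such bulk samples fewer cells of a type and less RNA per cell cannot be told apart. Gata2 itself, whose probe reads the transcript and not the enhancer, was at 2.00, 1.66, 0.89 and 1.42 in wild type samples 1 to 4 and at -1.24, -0.15, -1.27 and -1.07 in the mutants. Each mutant lay under each wild type value, a difference of -2.42 ± 0.38 (SE, n = 4 per group), with limma's adjusted p = 0.095 over all probes and an exact two-sided permutation p of 0.0286, the smallest that 70 arrangements allow.

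No genotype difference among the 10 genes passed the test. With the brightest probe standing for each gene, 8 were higher and 2 lower in the mutants, with a median difference of 0.43 against 0.078 over all 48110 probes tested. All probes include dim ones, and the median of the 10 genes was smaller after quantile normalization, as given below. Limma's adjusted p ran from 0.717 to 0.945 over the 10, and 0 passed 0.05, where 0.0333% of all probes did. At an unadjusted p under 0.05 there were 0 of the 10, against 2.97% of all probes, and for 0 of the 10 did the groups not overlap, against 1.08%. Higher in the mutants at any size were 53.9% of all probes. Mean differences of the 10 genes ran from -0.099 to 0.58, with standard errors of 0.36 to 0.64, and each 95% interval holds 0. In these fits and in the permutation of 4 against 4 arrays the litters are pooled. Taken within each litter, in a comparison chosen after seeing the data, both mutants lay above both wild type embryos in litter 1 and again in litter 2 for 3 of the 10 genes, Tgfbr1 (brightest probe), Smad7 and Id1, against 4.33% of all probes. For these 3 the exact two-sided permutation p within litters was 0.0556, the smallest that 36 arrangements allow, so this design could not pass 0.05, and for the other genes it ran from 0.167 to 0.889. The place of Id1 rests on mutant 1 at 3.682 against wild type 1 at 3.679, closer than repeated spots of a probe differ. Relative to endothelial genes the order was lost for Tgfbr1, Smad7 and Id1, as given below. Every one of the 10 brightest probes was well above background on all 8 arrays and none was saturated.

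**Figure D1:**
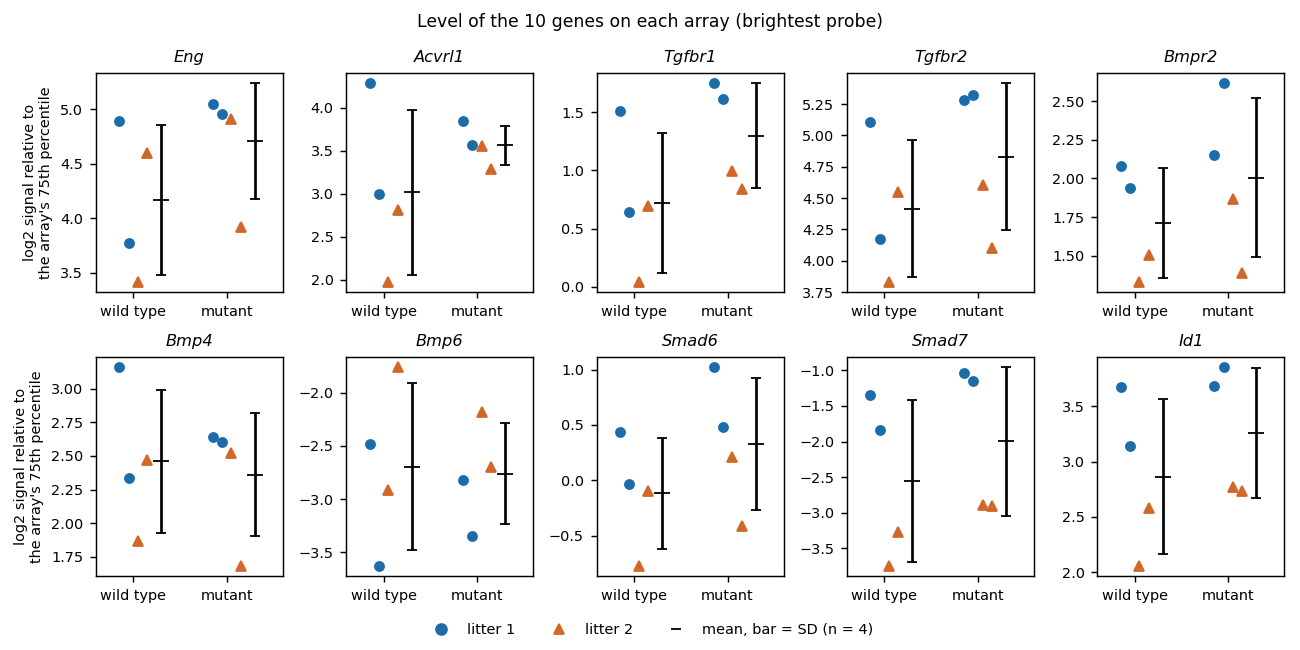
Level of each of the 10 genes on every array (y axis, log2 signal relative to the array's 75th percentile, a separate range per gene), by genotype (x axis). Points are single embryos, circles litter 1 and triangles litter 2, and the bar beside them is the mean ± SD of 4. The genotypes overlap for each gene, while for Smad7, Id1 and Bmpr2 the litter 2 triangles lie below the litter 1 circles.

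The surface receptors come first. Eng, the endothelial co-receptor, was at 4.89, 3.77, 3.41 and 4.59 in wild type samples 1 to 4 and at 5.04, 4.96, 4.91 and 3.91 in mutant samples 1 to 4. Mutants 1 to 3 lay close together above the wild type values, and mutant 4 lay below wild type 1 and wild type 4. The means were 4.17 ± 0.69 and 4.71 ± 0.53 (SD, n = 4), a difference of 0.54 ± 0.43 (SE; 95% interval -0.40 to 1.48), with an exact two-sided permutation p of 0.171. The difference of Eng was 0.67 in litter 1 and 0.41 in litter 2.

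Acvrl1, the type I receptor that pairs with Eng, was at 4.29, 3.00, 1.97 and 2.81 in wild type and at 3.84, 3.56, 3.55 and 3.29 in mutant cells. The 4 mutants lay inside the wild type range, and the wild type values were the more spread (SD 0.96 against 0.23, not tested). Its difference was 0.55 ± 0.46 (SE; 95% interval -0.47 to 1.56; exact permutation p = 0.314). Within litter 1 the difference of Acvrl1 was 0.063 and within litter 2 it was 1.03. That gap of 0.97 ± 0.77 (SE) had an unadjusted interaction p of 0.243 in limma, so the litters were not shown to differ.

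Tgfbr1 (ALK5), the type I receptor of TGF-beta, had the largest absolute difference among the 10 brightest probes. The probe A_55_P2137206 gave 1.51, 0.64, 0.038 and 0.69 in wild type and 1.75, 1.61, 0.99 and 0.84 in mutant cells. Wild type 1 lay among the mutants, and the other 3 wild type values lay below each of them. The difference was 0.58 ± 0.39 (SE; 95% interval -0.29 to 1.45; exact permutation p = 0.143), or 1.49-fold, and it was 0.61 in litter 1 and 0.55 in litter 2. The probe A_55_P1960906, further 5′, went the other way. It gave -2.74, -1.83, -0.81 and -2.85 in wild type and -2.94, -4.39, -3.73 and -1.95 in mutant cells, with mutant 4 inside the wild type range. That probe's difference was -1.19 ± 0.60 (SE; exact permutation p = 0.114), with limma's unadjusted p = 0.072 and adjusted p = 0.717. A_55_P1960901 differed by 0.42 ± 0.41 (SE), being well above background on 3 of 4 wild type and 4 of 4 mutant arrays, and A_55_P2137211 by 0.24 ± 0.33 (SE). The 4 probes of Tgfbr1 therefore disagree in direction, and the gap between them was not tested.

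The type II receptor Tgfbr2, which binds TGF-beta before Tgfbr1 joins, was at 5.11, 4.18, 3.83 and 4.55 in wild type and at 5.29, 5.33, 4.61 and 4.10 in mutant cells by its brightest probe A_51_P450573. Mutants 1 and 2 lay above each wild type value and mutants 3 and 4 inside their range. The difference was 0.41 ± 0.41 (SE; 95% interval -0.49 to 1.31; exact permutation p = 0.314). By the probe A_55_P2107288 the difference of Tgfbr2 was 0.040 ± 0.31 (SE), with wild type from 0.050 to 0.67 and mutants from 0.053 to 0.54.

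Bmpr2, the type II receptor of BMPs, which in humans is mutated in heritable pulmonary arterial hypertension, was at 2.08, 1.94, 1.33 and 1.50 in wild type and at 2.15, 2.62, 1.86 and 1.39 in mutant cells. Mutants 1 and 2 were the highest values and mutant 4 was lower than 3 of the 4 wild types. Its difference was 0.29 ± 0.36 (SE; 95% interval -0.51 to 1.09; exact permutation p = 0.457). Relative to the pan-endothelial median and after quantile normalization the sign of Bmpr2 turned, to -0.063 and -0.0092. Relative to the pan-endothelial median all probes were also shifted downward, as given below.

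**Figure D2:**
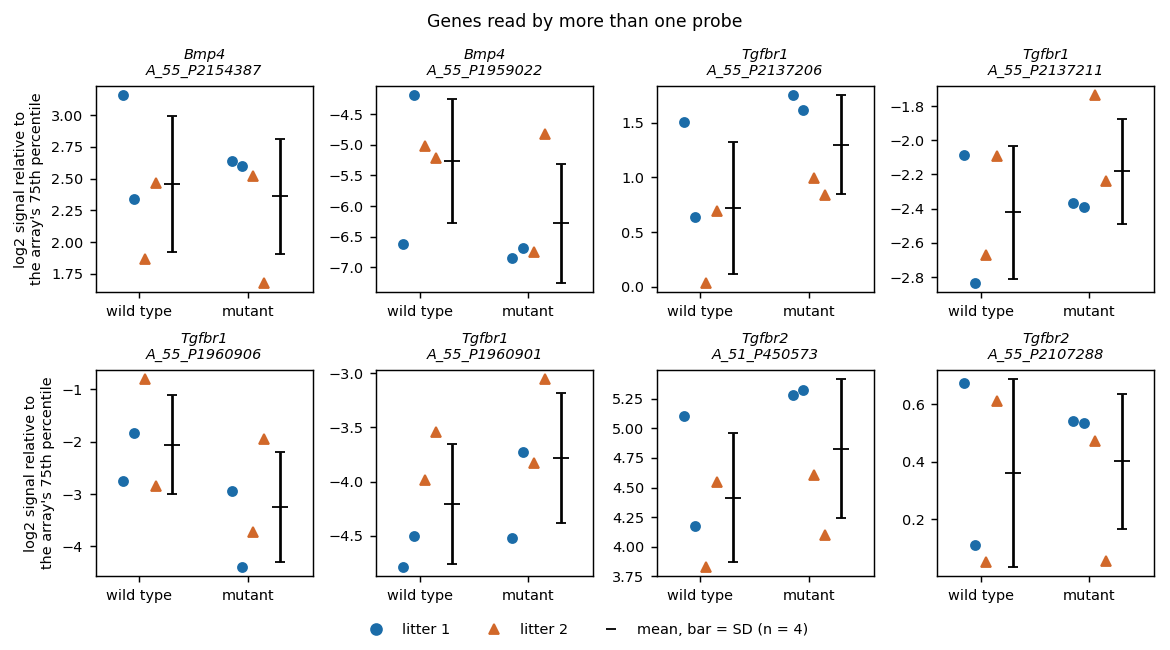
Level on every array (y axis, log2 signal relative to the array's 75th percentile, a separate range per panel) of each probe of Bmp4, Tgfbr1 and Tgfbr2, by genotype (x axis), with circles for litter 1, triangles for litter 2 and the mean ± SD of 4 embryos. The mutants are higher in the mean for 3 Tgfbr1 probes and lower for A_55_P1960906, and the genotypes overlap in each panel.

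Among the ligands, Bmp4, which patterns mesoderm and drives blood formation, was at 3.16, 2.34, 1.87 and 2.47 in wild type and at 2.64, 2.60, 2.52 and 1.68 in mutant cells by the probe A_55_P2154387. Mutants 1 to 3 lay within the wild type range and mutant 4 under it. The difference of Bmp4 was -0.099 ± 0.38 (SE; 95% interval -0.94 to 0.74; exact permutation p = 0.857), and in the authors' deposited table it had the opposite sign, 0.17. In that table all probes were shifted upward at the median by more than this, as given below. The second Bmp4 probe, A_55_P1959022, was well above background on the arrays of wild type 2 (-4.19) and wild type 3 (-5.01) and on 0 of 4 mutant arrays. It was therefore not tested, and no fold is given for it.

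Bmp6, a ligand made by endothelium and known for its control of hepcidin and iron, was at -2.48, -3.63, -2.92 and -1.76 in wild type and at -2.82, -3.35, -2.18 and -2.70 in mutant cells. The highest and the lowest value were both wild type. The difference of -0.064 ± 0.44 (SE; 95% interval -1.04 to 0.91; exact permutation p = 0.886) took both signs over the other settings, from -0.66 to 0.25, so it has no stable direction.

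The inhibitory Smads act inside the cell. Smad6, which mainly blocks BMP signals and is strong in embryonic vessels, was at 0.44, -0.032, -0.78 and -0.097 in wild type and at 1.02, 0.48, 0.21 and -0.41 in mutant cells. Mutants 1 and 2 were above each wild type value, and mutant 4 was below 3 of them. The difference was 0.44 ± 0.40 (SE; 95% interval -0.44 to 1.33; exact permutation p = 0.314). Smad7, which blocks TGF-beta and BMP receptors, was at -1.35, -1.83, -3.75 and -3.28 in wild type and at -1.04, -1.15, -2.89 and -2.91 in mutant cells. In each genotype samples 1 and 2 were far above samples 3 and 4. Its genotype difference was 0.56 ± 0.64 (SE; 95% interval -0.86 to 1.97; exact permutation p = 0.486), and it was 0.50 in litter 1 and 0.62 in litter 2. With litter as a block the standard error of Smad7 fell to 0.26 and limma's unadjusted p was 0.060, the adjusted p 0.558.

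Id1, an inhibitor of basic helix-loop-helix factors and a direct BMP target, was at 3.68, 3.14, 2.05 and 2.58 in wild type and at 3.68, 3.86, 2.77 and 2.73 in mutant cells. Wild type 3 and 4 were the lowest values and mutant 2 the highest. The difference of Id1 was 0.40 ± 0.44 (SE; 95% interval -0.57 to 1.37; exact permutation p = 0.429), being 0.36 in litter 1 and 0.44 in litter 2.

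By limma's interaction term, 0 of the 10 genotype differences were shown to differ between litters at the adjusted threshold or at an unadjusted p under 0.05, where 0% and 1.25% of all probes did. With litter as a block 0 of the 10 reached an unadjusted p under 0.05, against 4.86% of all probes. Without wild type 2, wild type 3 and mutant 4, the arrays that stood apart, the median difference of the 10 genes was 0.28, against -0.100 for all probes. In the authors' deposited table the 15 probes had adjusted p-values of 0.624 to 0.859, and the 10 brightest were all higher there, but so were all probes by 0.43 at the median. Among the marker lists of other cell types, 2 had genes past the adjusted threshold between genotypes. Of 12 platelet and megakaryocyte genes 12 were lower in the mutants with a median difference of -2.65, 3 of them past the adjusted threshold, and the list's median level was 1.29 to 2.44 on wild type and -1.67 to -0.19 on mutant arrays. Of 12 granulocyte and mast cell genes 11 were lower (median difference -1.52, 4 past the threshold), with levels of -0.93 to -0.24 on wild type and -3.32 to -2.42 on mutant arrays. The defining genes Pf4 and Mpo differed by -2.75 ± 0.42 (SE; limma's adjusted p = 0.086) and -4.88 ± 0.63 (SE; adjusted p = 0.043). With litter as a block, 0 genes of these 2 lists passed (lowest adjusted p = 0.061 in limma). Of 18 pan-endothelial genes 13 were higher (median difference 0.23, 0 past the threshold), with levels of 3.40 to 5.19 on wild type and 3.86 to 5.27 on mutant arrays. Pecam1 differed by 0.22 ± 0.41 and Cdh5 by 0.51 ± 0.55 (SE). Of 12 macrophage genes 11 were lower (median difference -0.23, 0 past the threshold), with levels of -0.63 to 1.13 on wild type and -0.92 to 0.88 on mutant arrays. Of 9 erythroid genes 7 were higher (median difference 0.42, 0 past the threshold), with levels of 0.98 to 4.79 and 1.79 to 4.29, and of 14 mesenchyme and pericyte genes 9 were higher (median difference 0.088, 0 past the threshold), with levels of 1.15 to 2.22 and 1.42 to 2.27. The part of these cells' RNA in the values of the 10 genes was not tested.

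**Figure D3:**
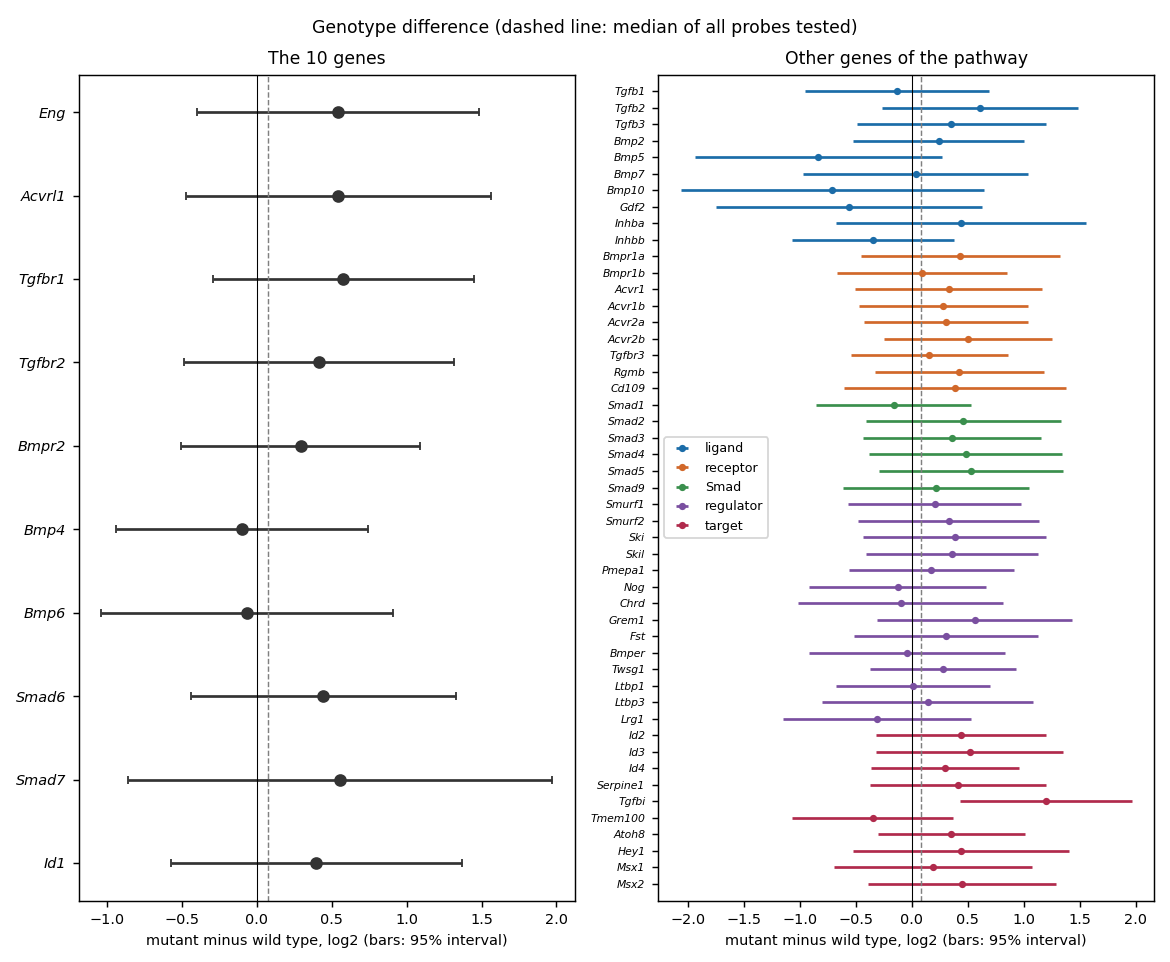
Genotype difference (x axis, mutant minus wild type, log2) with its 95% interval from limma for the 10 genes (left) and 49 of the 50 other pathway genes that were tested (right, coloured by role). The solid line is 0 and the dashed line the median of all probes, 0.078; each interval of the 10 genes crosses 0, and on the right that of Tgfbi does not.

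Other genes of the pathway were taken from a list of 51 ligands, receptors, Smads, regulators and targets, of which 50 were tested; the decoy receptor gene Bambi was well above background on no array. With the brightest probe standing for each gene, 39 were higher and 11 lower in the mutants, where 53.9% of all probes were higher. Their median difference was 0.30, against 0.078 over all probes, and 0 passed the adjusted threshold. At an unadjusted p under 0.05 there was 1 of the 50, against 2.97% of all probes, namely Tgfbi, an extracellular matrix protein that TGF-beta induces. Tgfbi ran from 3.87 to 4.96 in wild type and from 5.21 to 5.78 in mutant cells, so that the groups did not overlap, as for 0.561% of all probes in that direction. The difference was 1.20 ± 0.35 (SE; 95% interval 0.43 to 1.97), or 2.30-fold, being 1.40 in litter 1 and 1.00 in litter 2, with limma's unadjusted p = 0.0056 and adjusted p = 0.717. Its exact permutation p of 0.0286 is the smallest this design allows.

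By role, 5 of 10 other ligands were higher, with a median difference of -0.050. Bmp5 had the lowest p among them, at -0.84 ± 0.50 (SE), followed by Tgfb2 at 0.61 ± 0.40, and neither passed. Of 9 other receptors 9 were higher by their brightest probes (median 0.33), with the lowest p for the activin receptor gene Acvr2b at 0.50 ± 0.34 and the BMP co-receptor gene Rgmb at 0.43 ± 0.34. By further, dimmer tested probes of these receptors the difference ran from -0.39 to 0.48, so not each probe was higher. Of 6 receptor and common Smads 5 were higher (median 0.41), with the BMP-responsive Smad5 at 0.53 ± 0.37 and the shared partner Smad4 at 0.48 ± 0.39. Among 15 regulators 11 were higher (median 0.20), with the BMP antagonist gene Grem1 at 0.56 ± 0.39 and the Smad co-repressor gene Ski at 0.38 ± 0.37. Of 10 other targets 9 were higher (median 0.43), with Id3 at 0.52 ± 0.38 next after Tgfbi. Apart from Tgfbi, limma's unadjusted p of the genes named here lay above 0.12, so these values are given without a direction.

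Between litters the picture differed. With genotype in the model, 9 of the 10 genes were lower in litter 2 and 1 was higher, with a median of -0.72 (litter 2 minus litter 1), against 0.30 over all probes, 36.9% of which were lower in litter 2. Limma's adjusted p was under 0.05 for 1 of the 10, Smad7, against 5.17% of all probes in either direction and 0.985% in this one. An unadjusted p under 0.05 in this direction was reached by 5 of the 10, against 8.31% of all probes, namely Smad7, Id1, Bmpr2, Tgfbr1 and Smad6. For 3 of the 10 (Smad7, Id1 and Bmpr2) each litter 2 value lay under each litter 1 value, against 3.67% of all probes.

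Smad7 differed by -1.86 ± 0.26 (SE; 95% interval -2.45 to -1.28) on the log2 scale, 3.64-fold lower in litter 2, with limma's adjusted p = 0.013. The 4 arrays of litter 1 gave -1.83 to -1.04 and those of litter 2 -3.75 to -2.89. Over 15 other settings the difference of Smad7 ran from -2.30 to -0.84 and 13 of them passed the threshold; without mutant 1 and without mutant 2 it did not (adjusted p = 0.058 and 0.057). Without the 3 arrays that stood apart it was -1.85. Id1 differed by -1.05 ± 0.27 (SE; 95% interval -1.65 to -0.46), with 3.14 to 3.86 in litter 1 and 2.05 to 2.77 in litter 2, and its adjusted p of 0.054 in limma missed the threshold; it passed in 4 of 15 other settings. Bmpr2 gave 1.94 to 2.62 in litter 1 and 1.33 to 1.86 in litter 2, a difference of -0.67 ± 0.26 (SE; limma's adjusted p = 0.148).

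The remaining genes overlapped between litters. Acvrl1 differed by -0.77 ± 0.38, Smad6 by -0.75 ± 0.30, Tgfbr2 by -0.70 ± 0.32, Bmp4 by -0.55 ± 0.32 and Eng by -0.46 ± 0.39 (SE). Bmp6 alone among the 10 was higher in litter 2, by 0.68 ± 0.38 (SE). For Tgfbr1 the brightest probe gave -0.74 ± 0.30, while A_55_P1960901 gave 0.78 ± 0.31, A_55_P1960906 0.64 ± 0.58 and A_55_P2137211 0.23 ± 0.30 (SE), so the direction of Tgfbr1 between litters depends on the probe. For Tgfbr2 the other probe gave -0.17 ± 0.28 (SE). Of the 50 other pathway genes 27 were higher and 23 lower in litter 2, and 0 passed the adjusted threshold. An unadjusted p under 0.05 was reached by 9 of the 50 that were higher, against 18.1% of all probes in that direction, and by 4 that were lower, against 8.31%, so both shares lie near the background. The higher ones include the ligand gene Bmp7 (1.10) and the BMP antagonist genes Nog (0.73) and Chrd (0.85), and the lower ones Cd109 (-1.03), Hey1 (-0.97), Smad2 (-0.77) and Acvr1 (-0.69).

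Cell type markers moved with litter too. All 18 pan-endothelial genes were lower in litter 2, with a median of -1.06, and 6 passed the adjusted threshold, among them Cdh5 at -1.44 ± 0.30 (SE; limma's adjusted p = 0.033), while Pecam1 was at -0.61 ± 0.34. The median level of that list was 5.19, 4.38, 5.27 and 5.13 on the arrays of litter 1 and 3.40, 4.24, 4.38 and 3.86 on those of litter 2. All 12 macrophage genes were higher in litter 2 (median 1.47, 9 past the threshold), Csf1r by 1.31 ± 0.28, and their level was -0.92 to -0.45 in litter 1 and 0.80 to 1.13 in litter 2. All 9 erythroid genes were higher (median 1.39, 5 past the threshold), at levels of 0.98 to 1.94 against 3.47 to 4.79. Of the 5, Hba-a1 was saturated on the 4 litter 2 arrays, so it was at least 2.46-fold higher there. Hbb-y was not among the 5 (limma's adjusted p = 0.081). Its brightest probe was saturated on 1 array, so no size is given for it. The 14 mesenchyme and pericyte genes were all higher at a median of 0.54 with 0 past the threshold, Col1a2 by 0.88 ± 0.35. Litter 2 arrays thus had lower endothelial and higher macrophage and red cell marker levels, and the part of this in the litter difference of the 10 genes was not tested.

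**Figure D4:**
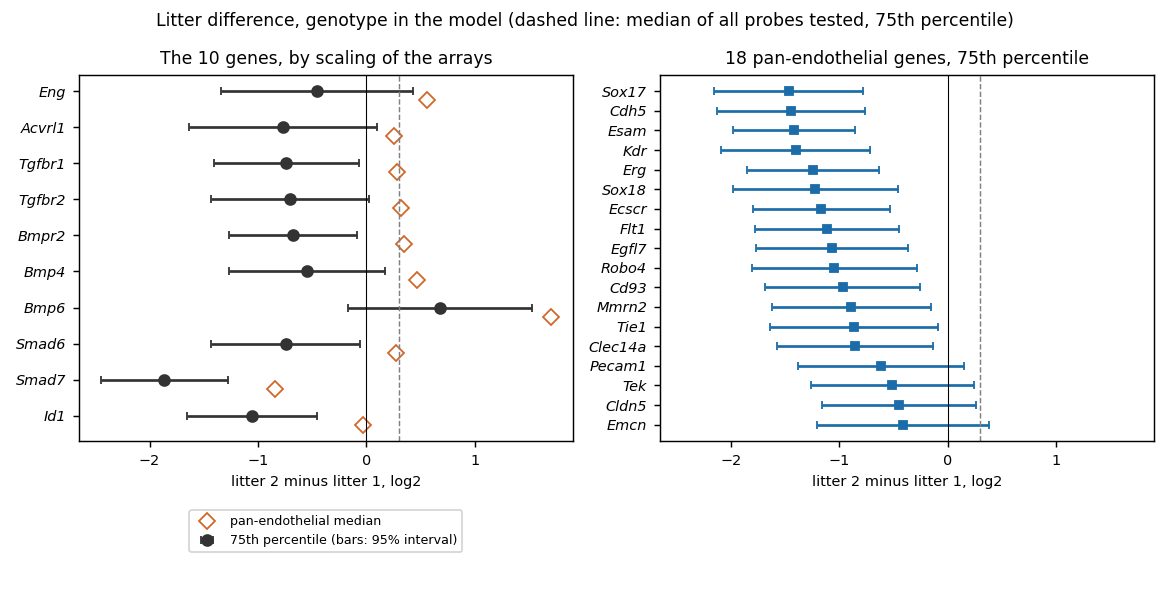
Litter difference (x axis, litter 2 minus litter 1, log2, genotype in the model) of the 10 genes (left) and of 18 pan-endothelial genes (right). Filled points with 95% intervals are values relative to the 75th percentile, and open diamonds are values relative to each array's pan-endothelial median. The dashed line is the median of all probes relative to the 75th percentile, 0.30, and applies to the filled points only. On the left 9 filled points lie below 0, and 2 diamonds do, those of Smad7 and Id1.

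To show how far the 10 genes vary with endothelial transcripts, each value was also taken relative to the median of the 18 pan-endothelial genes on its array. On that scale the SD over the 8 arrays was smaller for 9 of the 10 genes, and its median went from 0.59 to 0.36. It went from 0.64 to 0.20 for Id1, from 0.58 to 0.22 for Tgfbr1, from 0.57 to 0.21 for Tgfbr2, from 0.56 to 0.22 for Smad6 and from 1.06 to 0.50 for Smad7, and it rose from 0.60 to 0.95 for Bmp6. Over all probes tested 22.6% had a smaller SD on that scale, and 64.2% of the 12823 probes with a mean level above 0 did, so for well expressed genes a smaller SD was common. Bmp6 relative to the list was -7.67, -8.02, -8.09 and -8.47 in litter 1 and -6.32, -6.00, -6.56 and -6.56 in litter 2.

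Genotype differences on that scale were 0.19 for Eng, 0.19 for Acvrl1, 0.22 for Tgfbr1, 0.059 for Tgfbr2, -0.063 for Bmpr2, -0.45 for Bmp4, -0.42 for Bmp6, 0.088 for Smad6, 0.20 for Smad7 and 0.043 for Id1, with a median of 0.073, while all probes moved to -0.28 at the median. None passed limma's adjusted threshold. The order within both litters seen for Tgfbr1, Smad7 and Id1 was not kept on that scale. In litter 1, mutant 1 at -1.59 lay below wild type 1 at -1.51 for Id1. Also in litter 1, mutant 2 at -6.28 lay below wild type 2 at -6.22 for Smad7. In litter 2, mutant 3 at -3.39 lay below wild type 3 at -3.37 for Tgfbr1. Between litters, Smad7 was still lower on that scale, at -0.84, and past the threshold, and Id1 was at -0.035. On the same scale 7 genes turned to higher in litter 2, with Eng at 0.56 and Bmp4 at 0.47 past the threshold, and Bmp6 reached 1.70, but on that scale all probes were higher by 1.32 at the median. Relative to that shift, each of the 10 genes except Bmp6 lay below the median of all probes.

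Likeness of profiles was measured as the root mean square difference over the 8 arrays, after subtracting each gene's mean, among 18466 genes well above background on every array. The nearest to Eng were Chpf2 (0.076), Map3k11 (0.092) and Snrk (0.092), where the median gene was at 0.46. The nearest to Tgfbr1, by its brightest probe, were Ube3a (0.030), Mtx2 (0.045) and Emg1 (0.045), with a median of 0.45. The profiles share arrays, litter and scaling, so these are descriptions over 8 points.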

How the data were processed

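What the deposited scanner files hold is a linear intensity per spot. Their headers name Agilent Feature Extraction 10.7.3.1 (mm9 annotation, 1 colour), and per the file headers background was subtracted, the signal detrended within the array and low signals replaced by a surrogate, with no scaling between arrays. The authors' deposited table holds log2 values, log2 fold changes, a score (t and B) and p-values. Limma made them according to the submitters' processing notes, and its version is not given in the sources used here. All per-sample columns of the files were matched to samples (0 left unmatched).

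From the scanner files, control spots and outlier spots were left out, log2 of the processed intensity minus the array's 75th percentile was taken and spots of a probe were averaged. Probes that 4 or more of 8 arrays showed well above background, with 3 values per group (48110 of 55681), were fitted with limma 3.58.1 in R 4.3.3 (lmFit, eBayes, two-sided, Benjamini-Hochberg over all probes, threshold 0.05), and the fit was tested on simulated data. Litter differences had genotype in the model. Labels say that a litter is shared, so litter was also run as a block. Sample numbers do not pair the samples: deviations of same-numbered samples correlated at 0.62, -0.032, -0.081 and -0.15. The number of arrays limits the precision, and the spread between litters adds to the error of fits without the block.

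The 10 genes, the pathway and marker lists and the rules were chosen with earlier results of these data known, and the promoter window was set after seeing the sequences. Named are all 10 genes with each probe, per pathway role the 2 genes with the lowest p, and 1 or 2 defining genes per marker list; pathway genes given for the litter difference were chosen after their values were seen. Probe positions are as the files give them (mm9); promoter sequences are from RefSeq (GRCm38.p6), and Id1 and Acvrl1 are not in that table. The pathway list holds 1 gene that enters the counts but is not reported here by itself.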

Additional observations from a re-analysis of the deposited data

Results flagged for a closer look

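In 3 of 28 groups of 4 arrays, 1 array lay far from the other 3, where chance flags about 1 in 20 groups. The gap to the nearest array divided by the group's range passed Dixon's 95% limit, and in each case the array was mutant 4 and the low one. The 28 groups come from 14 probes on the same arrays and are not independent, so the rate for single groups does not judge this count. For Eng the ratio was 0.883 (3.91 against 4.91 for the nearest mutant), for the Bmp4 probe A_55_P2154387 it was 0.879 (1.68 against 2.52), and for the Tgfbr2 probe A_55_P2107288 it was 0.857 (0.053 against 0.47). Without mutant 4 the difference of Bmp4 was 0.13 and that of Eng 0.81, and neither passed limma's adjusted threshold. Mutant 4 is also 1 of the 3 arrays that stood apart on the first principal component, and its pan-endothelial level was 3.86, against 4.38 to 5.27 on the other mutants; the part of this was not tested.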

How the results depend on the processing

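No setting brought any of the 10 genes past the adjusted threshold between genotypes, over 18 settings each, and no interaction passed. Their median genotype difference ran from 0.073 (relative to the pan-endothelial list, where the median of all probes was -0.28) over 0.12 (quantile normalization) to 0.69 (authors' deposited values, where all probes shifted by 0.43), and from 0.18 to 0.66 with single arrays left out. The count of all probes past the threshold (16, each lower) was 42 with normexp, 1 with quantile normalization, 8 with no filter on dim probes, 29 with probes well above background on all 8 arrays, 55 with the authors' deposited values (14 higher, 41 lower), and 0 relative to the pan-endothelial list. It was 0 with litter as a replicate block (lowest adjusted p = 0.061 in limma, 2339 at an unadjusted p under 0.05) and 0 with the sample number as a replicate block (1669), and the block changed no call among the 10 genes. It was 0 without wild type 2, wild type 3 and mutant 4 (2598 unadjusted), a setting chosen after seeing the data, and 0 to 23 with single arrays left out. Signs turned between genotypes for Bmp6 (0.020 with normexp, 0.10 with quantile normalization, 0.20 in the authors' values, and 0.0089, 0.25 and 0.13 without wild type 1, wild type 4 and mutant 2, of a range of -0.38 to 0.25), Bmp4 (0.17 in the authors' values, 0.13 without wild type 1 and 0.13 without mutant 4, of a range of -0.30 to 0.13) and Bmpr2 (-0.0092 with quantile normalization and -0.063 relative to the pan-endothelial list). Between litters, 2489 probes passed (2015 higher, 474 lower in litter 2), against 1473 with normexp (769 and 704), 859 with quantile normalization (463 and 396), 1379 with 1 probe per gene name, 26945 relative to the pan-endothelial list (26722 and 223), 7569 without the 3 arrays (4144 and 3425) and 87 to 5607 with single arrays left out. Of the 10 genes 1 passed, against 2 with normexp, 2 with probes well above background on all 8 arrays, 4 relative to the pan-endothelial list, 4 without the 3 arrays and 0 to 2 with single arrays left out. Their median litter difference of -0.72 turned to 0.30 relative to the pan-endothelial list, where Eng was at 0.56, Acvrl1 at 0.25, Tgfbr1 at 0.28, Tgfbr2 at 0.32, Bmpr2 at 0.34, Bmp4 at 0.47 and Smad6 at 0.27, and ran from -0.89 to -0.57 with single arrays left out. Eng also turned with quantile normalization (0.14). The causes of these changes were not tested.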
